A study of Mus musculus with 8 samples.

Results

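The data described here are the 4 RNA sequencing libraries labelled β-catenin GOF; Mll1+/- (mice J_7079, J_7100, J_7134 and J_7139), out of 8 libraries in the series, and they were chosen by this label alone. Each library was made from a small pool of intestinal crypt cells of 1 mouse that were sorted as Lgr5-GFP+, EpCAM+ and CD45-. The mice carried Lgr5-EGFP-IRES-CreERT2, which places GFP and an inducible Cre recombinase under the control of Lgr5, an allele of β-catenin that loses exon 3 upon recombination (GOF, gain of function) and 1 floxed and 1 intact allele of Mll1. Recombination was induced at an age of 4 to 6 weeks with tamoxifen, 50 mg per kg on 3 consecutive days, and cells were taken 10 days after induction. All groups of the series shared the β-catenin allele, the Cre driver and tamoxifen, so no library with unmutated β-catenin was among them, and the labels name this group the control. GFP marks cells that express the driver and not recombination itself, so the pools could hold cells in which an allele was not recombined. The group is described here alone, across 53801 genes, without comparison with the other genotype, although the scaling of the libraries used all 8.

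Crypt base columnar cells are the Lgr5+ stem cells of the intestinal epithelium. Wnt ligands keep β-catenin from being degraded, and β-catenin then activates target genes together with TCF factors. Deletion of exon 3 removes the phosphorylation sites that mark β-catenin for degradation, which leaves the pathway active. Stem cells lie between Paneth cells, which secrete antimicrobial peptides, and give rise to goblet, enteroendocrine and tuft cells of the secretory lineages and to absorptive enterocytes.

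The libraries held between 14468751 and 16847793 counts on genes, and 35767 genes had at least 1 count in any of them. At least 10 counts in each library were reached by 14054 genes. Expression is given in CPM, counts per 1000000 of a library after TMM scaling, and ranks are those of the mean CPM among the genes with a count. Long genes collect more counts than short ones, so an order of genes or lists by CPM is an order of read counts. Levels per length are given in TPM, counts per kilobase scaled to a sum of 1000000. The limit that a count of 0 allows, taken as 3 counts, was 0.179 to 0.240 CPM (called the floor below), and it covers counting error only, since reads carry no molecular identifiers. Over the genes with a mean of at least 10 counts, Spearman correlations between pairs of libraries were 0.947 to 0.963, as a description in which all pairs share the method and the range of gene levels.

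Kmt2a (ENSMUSG00000002028, chromosome 9 from 44803355 to 44881296) encodes Mll1, a histone H3 lysine 4 methyltransferase. It was at 50.0 in J_7079, 64.7 in J_7100, 51.0 in J_7134 and 48.8 in J_7139 CPM, with a mean of 53.6 ± 7.43 CPM (SD, n = 4) and rank 3089. J_7100 was the highest and the others lay close together. Ctnnb1 (ENSMUSG00000006932, chromosome 9 from 120929216 to 120960507), which encodes β-catenin, was at 188 in J_7079, 180.4 in J_7100, 147 in J_7134 and 152 in J_7139 CPM, a mean of 167 ± 20.4 CPM and rank 796. Counts were summed over whole genes and do not separate exons, so neither the loss of exon 3 nor that of an Mll1 allele can be read from them.

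The markers of Lgr5+ stem cells were all present in every library. Olfm4 (ENSMUSG00000022026, chromosome 14 from 79984081 to 80023139) encodes a secreted glycoprotein of crypt base columnar cells. It had the highest mean of any nuclear protein-coding gene by CPM and by TPM, and was at 21150 in J_7079, 22879 in J_7100, 19222 in J_7134 and 19460.1 in J_7139 CPM. By TPM, the defensin Defa24 was above Olfm4 in J_7100, at 12007 beside 11013 TPM, and in J_7134, at 9439 beside 8527 TPM. The highest and the lowest library of Olfm4 differed 1.19-fold, and its mean of 20678 ± 1699.9 CPM (SD, n = 4) ranked 5. Lgr5 (ENSMUSG00000020140, chromosome 10 from 115450311 to 115587780), the R-spondin receptor, was at 307 in J_7079, 293 in J_7100, 214 in J_7134 and 268 in J_7139 CPM, a mean of 270.5 ± 40.9 CPM and rank 398. The table does not separate the reporter allele of Lgr5 from the intact one. Smoc2 (ENSMUSG00000023886, chromosome 17 from 14279506 to 14404790), a matricellular protein, was at 355 in J_7079, 321 in J_7100, 351 in J_7134 and 376 in J_7139 CPM, a mean of 351 ± 22.4 CPM and rank 269. Axin2 (ENSMUSG00000000142, chromosome 11 from 108920349 to 108950783), a Wnt target that feeds back on β-catenin, was at 172 in J_7079, 182 in J_7100, 149 in J_7134 and 161 in J_7139 CPM, a mean of 166 ± 14.4 CPM and rank 805. Per length, Olfm4 was at 10359.8 ± 1279 TPM, Smoc2 at 184 ± 25.7, Axin2 at 44.9 ± 6.38 and Lgr5 at 39.4 ± 8.59 TPM (SD, n = 4). In each of the 4 libraries Olfm4 was above Smoc2, and Smoc2 was above both Axin2 and Lgr5. By TPM, Axin2 was above Lgr5 in each library as well, at 50.0, 47.2, 35.5 and 46.7 TPM beside 47.8, 40.6, 27.4 and 41.7 TPM in the order J_7079, J_7100, J_7134 and J_7139, although their means differed by less than the SD of either. By CPM, Lgr5 was above Axin2 in each library, so the order by TPM rests on the gene lengths used, 10264 bases for Lgr5 and 5506 for Axin2. Whether these lengths match the transcripts present was not tested. J_7134 held the least of Olfm4, Lgr5 and Axin2, but not of Smoc2.

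The 32 genes of the stem cell list summed to 29102, 30399, 25847 and 26763 CPM in the 4 libraries, in the order J_7079, J_7100, J_7134 and J_7139, which is kept below. Every listed gene had at least 10 counts in each library. Olfm4 made up 73.8% of the mean sum of 28028 ± 2093 CPM. It was followed by Slc12a2, a chloride cotransporter of crypt cells, at 2588 ± 330.4 CPM, Soat1, a cholesterol-esterifying enzyme, at 477 ± 73.0 CPM, and Cdca7, a MYC-induced cell cycle gene, at 473 ± 24.0 CPM. Sox9, a crypt transcription factor, was at 238, 307, 187 and 252 CPM and Cd44, an adhesion receptor and Wnt target, at 251, 242, 239 and 228 CPM. The libraries labelled as stem cells thus held each of these markers, and none of those named was near the floor.

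By CPM, the 30 most abundant genes held 38.6% ± 3.80 of the counts (SD, n = 4), and 10 of them are encoded by the mitochondrial genome. This order is one of read counts and favours long genes. mt-Rnr2, the large mitochondrial ribosomal RNA, ranked 1 at 119075, 154889, 126603 and 84171 CPM. mt-Cytb, a subunit of respiratory complex III, ranked 3 at 45456, 56278, 88678 and 60827 CPM, and mt-Nd1, of complex I, ranked 4 at 23633, 28314, 45561 and 28535 CPM. Of the 8 protein-coding mitochondrial genes among the 30, 7 were highest in J_7134 and 6 were lowest in J_7079. mt-Nd5 was highest in J_7134 but lowest in J_7139, at 7041, 7948, 10206 and 5916 CPM. Both mitochondrial ribosomal RNAs were highest in J_7100 and lowest in J_7139, and so was mt-Nd6, at 2171, 2769.6, 2359.7 and 1420.5 CPM. Strand was not used in counting, so reads of mt-Nd6, which lies on the opposite strand to its neighbours, cannot be told apart from antisense reads. CT010467.1, annotated as ribosomal RNA on chromosome 17, ranked 2 at 49148, 64737, 87035 and 55944 CPM and was highest in J_7134.

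**Figure D1:**
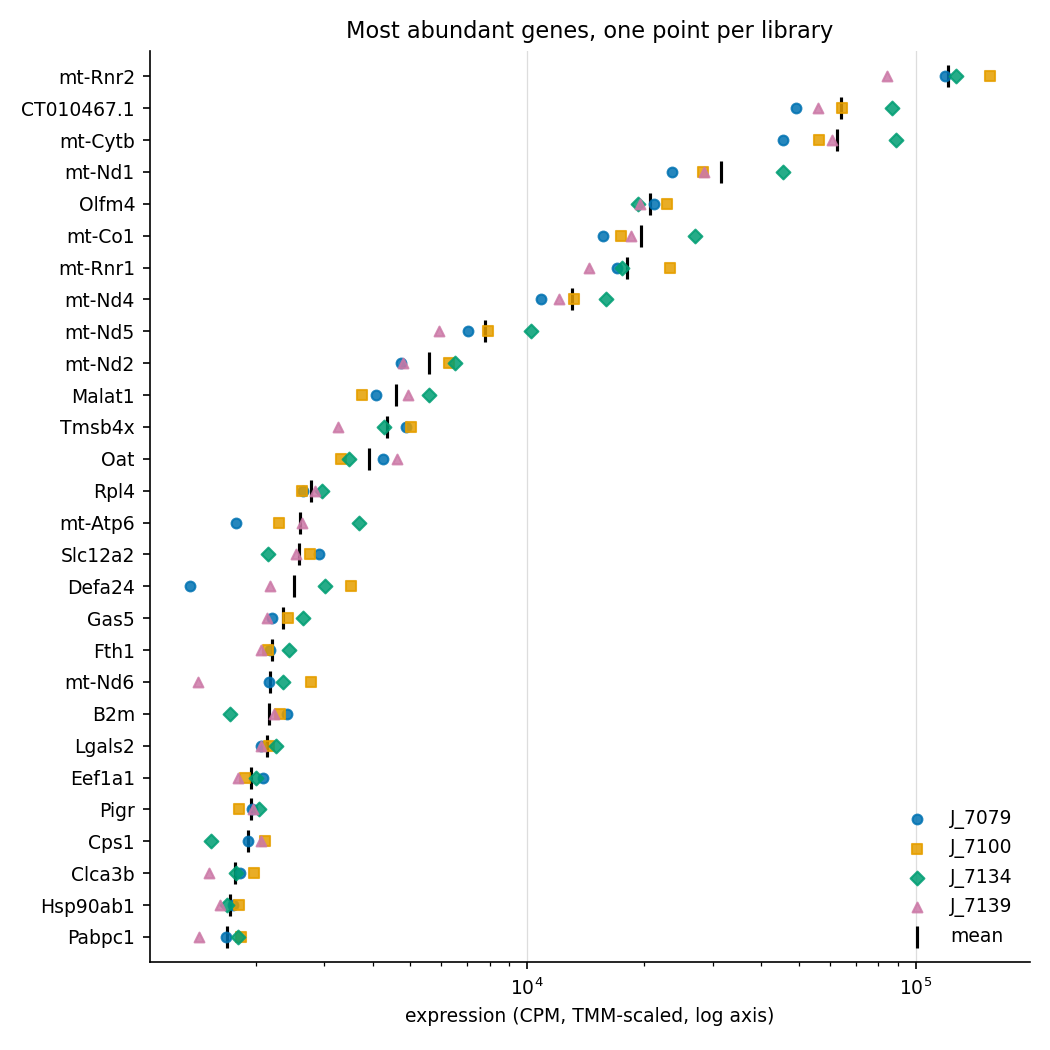
Expression of 28 of the 30 genes with the highest mean CPM, with 1 point for each library and a black bar for the mean of 4 libraries (log axis, TMM-scaled CPM). Olfm4 is the only stem cell marker among the 10 uppermost genes, and Defa24 shows the widest spread, from 1353 CPM in J_7079 to 3529 CPM in J_7100.

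The nuclear genes among these 30 are known for different functions. Malat1, a nuclear long noncoding RNA, was at 4076, 3748, 5582 and 4932 CPM, and Gas5, a host gene of small nucleolar RNAs, at 2205, 2431, 2657 and 2139 CPM. Translation was represented by Rpl4, Eef1a1 (elongation factor) and Pabpc1 (poly(A)-binding protein), from Rpl4 at 2774 ± 159 CPM to Pabpc1 at 1686 ± 182 CPM. Tmsb4x, which binds actin monomers, was at 4884, 5019, 4289.6 and 3267 CPM. Enzymes of nitrogen metabolism were Oat, ornithine aminotransferase, at 4261, 3327, 3489 and 4613 CPM and Cps1, carbamoyl-phosphate synthase, at 1916, 2117, 1535 and 2059.5 CPM. Epithelial genes were Slc12a2, Pigr, the transporter of secretory immunoglobulin, at 1944 ± 97.5 CPM, Lgals2, a galectin, at 2138 ± 87.3 CPM, and Clca3b at 1773 ± 192 CPM. Other genes among the 30 were Fth1, a ferritin chain, B2m, of MHC class I, Hsp90ab1, a chaperone, and Defa24, a Paneth cell defensin.

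Among these genes the 4 libraries were closest for Lgals2, with a coefficient of variation (CV, the SD divided by the mean) of 0.0408, followed by Hsp90ab1 at 0.0469 and Pigr at 0.0502. Defa24 had the highest CV, 0.380, at 1353, 3529, 3010.1 and 2174 CPM. Per length the order changed. The 10 genes with the highest TPM were 6 that are encoded in the mitochondrial genome, CT010467.1, Olfm4, Defa24 at 8722 ± 2839.6 TPM and Gm14303 at 8454 ± 1023 TPM. Malat1, a long transcript, fell from rank 11 by CPM to rank 106 by TPM, and Slc12a2 from 16 to 182.

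By the class that the annotation gives (Biotype), protein-coding genes held 72.9% ± 2.66 of the counts (SD, n = 4), mitochondrial ribosomal RNA 12.98% ± 2.67, other ribosomal RNA 5.98% ± 1.13, processed pseudogenes 5.00% ± 0.239, long intergenic noncoding RNA (lincRNA) 0.850% ± 0.0932 and processed transcripts 0.509% ± 0.0174. The share of protein-coding genes was 73.0, 70.2, 72.1 and 76.5%. Mitochondrial ribosomal RNA was highest in J_7100 with 16.2% and lowest in J_7139 with 9.74%, and other ribosomal RNA was highest in J_7134 with 7.55%. Nearly all ribosomal RNA outside mitochondria came from CT010467.1, and the next gene of the class, n-R5-8s1, was at 141, 155, 318 and 221 CPM. Malat1, Gm26917 and Xist led the lincRNAs, and Gas5, Cct6a and Zfas1 the processed transcripts.

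**Figure D2:**
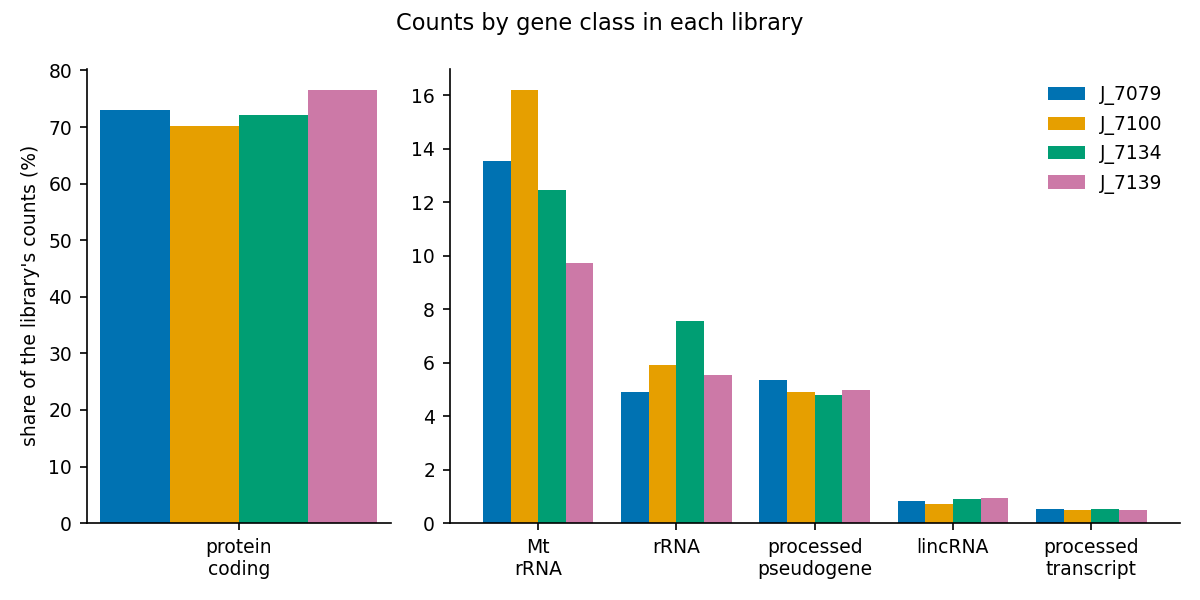
Share of a library's counts (%) on genes of each of the 6 classes with the most counts, with 1 bar for each library and axes from 0. Protein-coding genes (left) held 70.2 to 76.5% in each library, and mitochondrial ribosomal RNA 9.74 to 16.2%.

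Few genes held much of the signal. The upper 50% of the counts lay on 253, 155, 109 and 284 genes, and without mitochondrially encoded genes on 720.2 genes on average. 56 genes had a mean of at least 1000 CPM, 1568 of at least 100 CPM and 8727 of at least 10 CPM.

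Processed pseudogenes are copies of spliced messenger RNA that were inserted into the genome, and the 3 with the highest CPM, Gm14303, Gm9794 and Gm15427, resembled ribosomal protein genes. Gm14303, on chromosome 2, had Rps29, of the small ribosomal subunit, as its closest protein-coding match. Gm14303 was at 1033, 1071, 1017 and 794 CPM and Rps29 at 109, 114, 111 and 97.6 CPM, so that the copy held 9.07 times the mean CPM of its parent (not divided by length), and it was above the parent in each library. Gm9794, on chromosome 6, minus strand, resembles Rpl23, of the large subunit, on chromosome 11. In the first 300 bases of the coding sequence they differ by 1 base, which is in capitals below. Both are shown because they differ so little while their counts differ (5′ to 3′, GENCODE release 21 transcripts, GRCm38).
Rpl23 coding sequence: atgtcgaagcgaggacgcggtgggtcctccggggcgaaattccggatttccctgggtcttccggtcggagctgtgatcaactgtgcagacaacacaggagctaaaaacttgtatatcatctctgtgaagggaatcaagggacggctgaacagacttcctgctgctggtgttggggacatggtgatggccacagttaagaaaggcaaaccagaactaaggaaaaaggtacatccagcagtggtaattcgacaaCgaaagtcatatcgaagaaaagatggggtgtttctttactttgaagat
Gm9794, chr6:66875444-66875743: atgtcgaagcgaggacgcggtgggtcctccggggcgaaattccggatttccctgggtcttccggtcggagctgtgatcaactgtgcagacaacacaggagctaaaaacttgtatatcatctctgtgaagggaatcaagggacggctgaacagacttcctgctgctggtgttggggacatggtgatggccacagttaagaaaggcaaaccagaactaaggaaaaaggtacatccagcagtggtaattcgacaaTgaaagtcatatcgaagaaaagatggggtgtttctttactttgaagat

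Gm9794 was at 1155, 1209, 1029.7 and 883 CPM and Rpl23 at 394, 419.7, 379 and 312 CPM. Here, too, each library held more counts on the copy than on the gene. The authors describe counts of uniquely mapped reads, so reads of a gene and of its near-identical copy may be placed on either or left out. The values of both, and their sum, are thus uncertain, and whether the copies were transcribed was not tested.

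Over the whole family, the copies together held about as many counts as the ribosomal protein genes. Of 698 processed pseudogenes with a mean of at least 10 CPM, 230 shared at least 20% of their 31-base words with a ribosomal protein gene that was their closest protein-coding match, or tied with it within 5% of the shared words. These copies summed to 29911, 30415, 29379.6 and 25236 CPM, and the 83 ribosomal protein genes summed to 28586, 29523, 28999 and 25108 CPM. The means were 28735 ± 2371 and 28054 ± 2001 CPM (SD, n = 4). Among 74 ribosomal protein genes with such a copy, 51 were below the sum of their copies, while 55 of the 230 copies taken singly were above their gene. Rpl36a was at 34.8 CPM with 603 CPM on its copy, and Rps14 at 1567 CPM with 1317 CPM on 2 copies. The thresholds of 10 CPM, 20% and 5% were chosen after the values were seen.

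**Figure D3:**
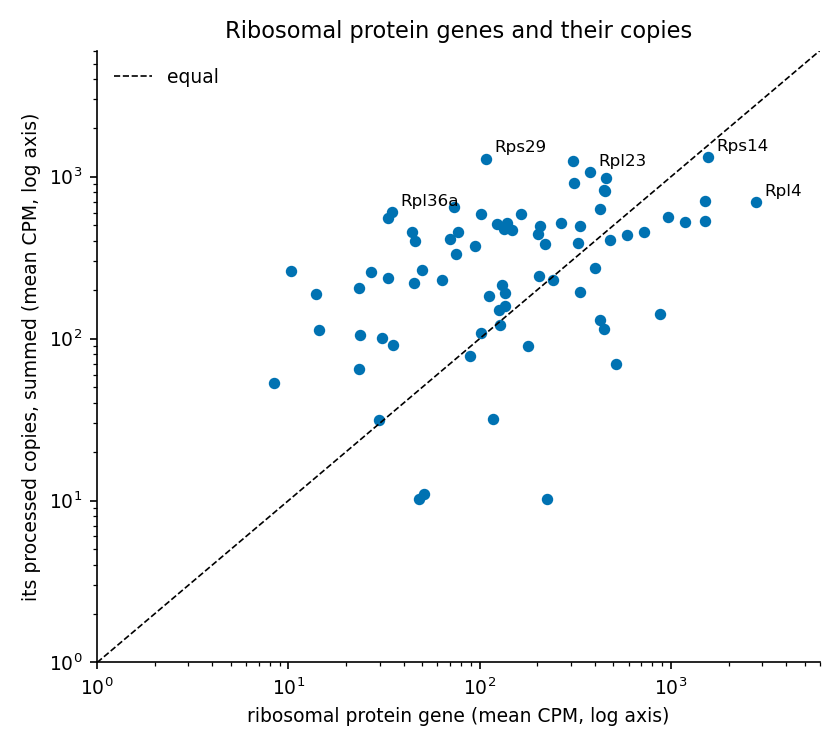
Mean CPM of 74 ribosomal protein genes (x axis) and the summed mean CPM of their processed copies (y axis), both on log axes, with a dashed line of equality. 51 genes lie above the line, among them Rps29 and Rpl23, and Rpl4 and Rps14 lie below it.

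Near-identical genes could also run in opposite directions between libraries. Gm10036, annotated as protein-coding on chromosome 18 and with 76.6% of its words in Rpl11, was at 66.2, 295, 67.6 and 53.7 CPM. Gm10288, a processed pseudogene of the same family, was at 275, 88.6, 240.4 and 211 CPM and was lowest in J_7100, the library with the most Gm10036. Together with Rpl11 they summed to 378, 401, 335 and 292 CPM, a CV of 0.137 against 0.966 for Gm10036 alone. The mitochondrial genome has nuclear copies, too. Gm10925 is annotated as an unprocessed pseudogene on chromosome 1. All of its 31-base words are in mt-Atp6, and Gm10925 was at 829, 1009.7, 1952 and 1541 CPM beside 1778, 2293, 3689.7 and 2629.9 CPM of mt-Atp6. Gapdh, a glycolytic enzyme that shares 27.2% of its words with other annotated genes, was at 5.91, 3.71, 6.72 and 5.47 CPM. Per length, Gapdh was at 1.95 ± 0.454 TPM and Ldha, of the same pathway, at 107 ± 14.9 TPM. Olfm4, Smoc2, Axin2 and Lgr5 shared at most 4.20% of their words with other genes.

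Genes of differentiated lineages were present at different levels. By summed TPM, Paneth cell genes stood at 16679 ± 4339, the stem cell list at 12829 ± 1518, goblet cell genes at 1839.8 ± 296, enteroendocrine genes at 53.1 ± 19.6 and tuft cell genes at 39.3 ± 3.47 (SD, n = 4). The order of the Paneth and stem cell lists was not the same in each library. The Paneth list summed to 11415, 21961, 17328 and 16014 TPM and the stem cell list to 14167, 13380, 10653 and 13117 TPM, so that J_7079 held more of the stem cell list and the others more of the Paneth list. Defensins are short genes, and by CPM the Paneth list stood below the stem cell list in each library. The 23 measured Paneth genes summed to 3948, 7076, 6507 and 5299.9 CPM, with 22 at 10 counts or more in each library. Defa24 made up 44.1% of the mean sum. Defa30, another defensin, was at 427, 1139, 767 and 657 CPM, and Lyz1, the Paneth cell lysozyme, at 137, 337, 584 and 237 CPM. Both were lowest in J_7079. Pla2g2a, a secreted phospholipase, ran differently, at 1138, 106, 244 and 1178 CPM. It is annotated as a polymorphic pseudogene, and some inbred strains carry a disrupted copy. Defa24 shares 57.1% and Defa30 70.4% of their words with other genes, so single defensins are uncertain. In bulk libraries, fewer cells of a type and less RNA per cell cannot be told apart, and this holds for every list below. Ang4, an antimicrobial ribonuclease, and Itln1, a lectin, named after their values were seen, were at 64.4, 101, 101 and 41.0 and at 149, 193, 364 and 235 CPM.

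Of the goblet cell list, 15 of 25 genes had at least 10 counts in each library, and the list summed to 744, 873, 937 and 979 CPM. Spink4, a protease inhibitor, was at 171, 362, 389.7 and 292 CPM, Agr2, a disulfide isomerase needed for mucin folding, at 162, 188, 183 and 233 CPM and Tff3, a trefoil peptide, at 144, 116, 82.7 and 203 CPM. Muc2, the goblet cell mucin, was at 14.6, 8.48, 12.2 and 7.60 CPM. Retnlb, a resistin-like peptide, was at 32.7, 0.210, 104 and 54.8 CPM, which in J_7100 was 3 counts.

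Enteroendocrine genes summed to 125, 122, 52.5 and 69.7 CPM, and 6 of 28 had at least 10 counts in each library. Pcsk1, a prohormone convertase, was the highest at 28.8, 20.7, 25.7 and 33.3 CPM. Neurod1, a transcription factor of the lineage, was at 22.9, 7.29, 0 and 0.0644 CPM, with 0 and 1 counts in J_7134 and J_7139. The granule proteins Chga and Chgb were highest in J_7100, at 0.775, 7.99, 0.880 and 0.837 and 7.46, 29.6, 4.88 and 6.11 CPM, and so was Tac1, a tachykinin precursor of enterochromaffin cells, at 1.25, 23.0, 1.28 and 2.32 CPM. J_7079 and J_7100 were above the other 2 libraries in the summed list, J_7079 with the most Neurod1 and J_7100 with the most Chga, Chgb and Tac1.

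Tuft cell genes summed to 44.4, 42.5, 54.9 and 45.8 CPM, of which Krt23, a keratin, made up 81.5%. The defining tuft marker Dclk1 was at 0.477, 0.561, 0.320 and 0.708 CPM, close to the floor. Hpgds, prostaglandin D synthase, was at 1.37, 2.59, 4.40 and 8.05 CPM and highest in J_7139. The enterocyte list summed to 3607, 5876, 5218 and 3505 CPM, and 8 of its 31 genes held 90% of that. Its highest members were the antimicrobial lectins Reg3b, at 1307, 2199, 1892 and 918 CPM, and Reg3g, at 813, 2137, 1901 and 1038 CPM. These 2 genes weigh most in the sum. Reg3b alone made up 34.7% of the mean of 4551 CPM, and Reg3g had a mean of 1473 CPM. Prap1 was at 149.7, 209, 246 and 203 CPM. Alpi, intestinal alkaline phosphatase of mature enterocytes, was at 0.239, 0.140, 1.36 and 1.09 CPM. Reg3b and Reg3g were both higher in J_7100 and J_7134 than in J_7079 and J_7139, as were Defa24 and Lyz1.

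**Figure D4:**
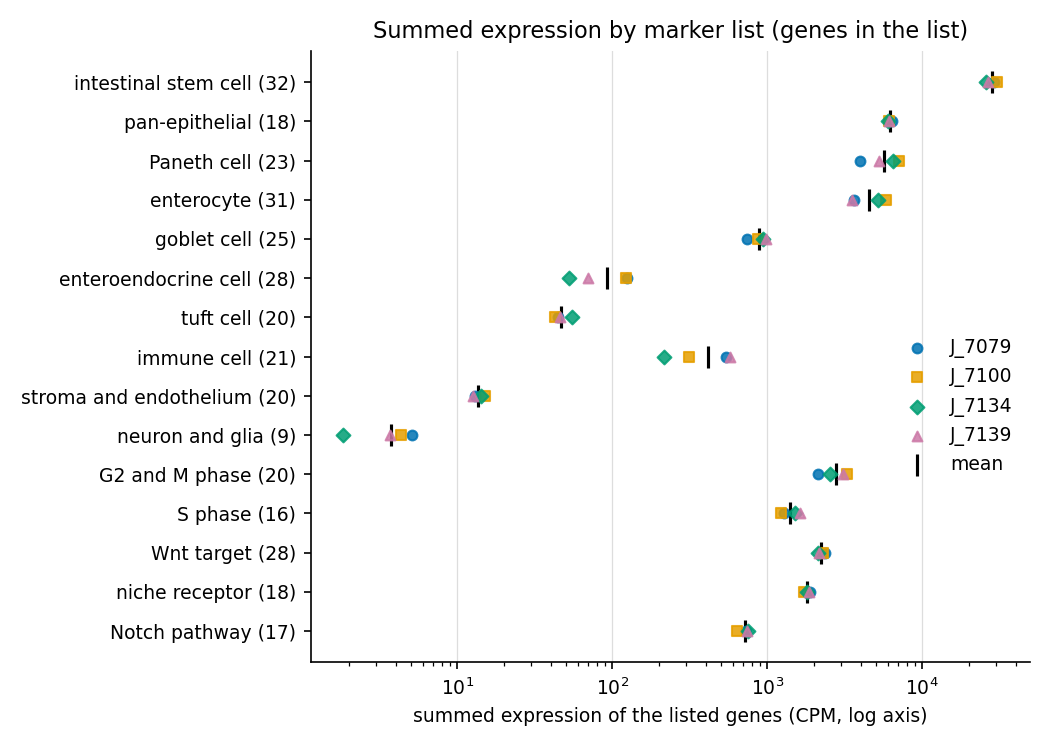
Summed CPM of the genes in 15 lists (number of genes measured in parentheses), with 1 point for each library and a black bar for the mean of 4 libraries (log axis). The stem cell list has the highest summed CPM of these lists, at 25847 to 30399 CPM, Paneth cell genes at 3948 to 7076 CPM and tuft cell genes at 42.5 to 54.9 CPM.

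The Wnt target list summed to 2349, 2277, 2120.0 and 2142 CPM, 1.11-fold between the highest and the lowest library, and the highest members after Lgr5 were Ccnd2, a D-type cyclin, at 278, 207, 330.0 and 231 CPM, Sox9 and Cd44. The list of niche receptors and their targets summed to 1878, 1731, 1804 and 1859 CPM, a 1.09-fold range. Both folds hold for TMM-scaled CPM and were wider without this scaling. As a share of a library's counts, the Wnt target list ran from 0.183 to 0.234% and the niche list from 0.156 to 0.187%. The niche list was led by Id2, Id3 and Id1, which are targets of BMP signalling, at 344 ± 72.9, 315 ± 59.1 and 263 ± 34.4 CPM. Lgr4, an R-spondin receptor, was at 184, 234, 161 and 223 CPM and Egfr, the EGF receptor, at 21.6, 28.2, 20.9 and 25.6 CPM. All 3 Id genes were lowest in J_7100, and Lgr4 and Egfr were highest there. In the Notch list, Hes1, a repressor of secretory fate, made up 83.0% of the sum at 594, 526, 629.6 and 623 CPM. Hes6 was at 45.3, 30.3, 56.5 and 41.5 CPM, Rbpj, the DNA-binding partner of Notch, at 21.1, 25.7, 15.5 and 17.8 CPM, the ligand Dll1 at 20.1, 10.9, 8.88 and 17.3 CPM and Notch1 at 5.67, 7.71, 6.08 and 7.34 CPM.

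The regional genes of the small intestine were led by Onecut2, a transcription factor, at 192, 183, 111 and 179 CPM, with J_7134 the lowest. Gata4, a factor of the proximal and middle small intestine, was at 35.4, 36.2, 29.2 and 37.7 CPM, Ada, adenosine deaminase, at 15.2, 14.2, 33.7 and 13.6 CPM and Fabp1, a fatty acid-binding protein, at 6.74, 32.4, 11.99 and 17.6 CPM. Pdx1, a duodenal factor, was at 0.119, 0, 2.88 and 1.35 CPM. The labels name intestine without a region.

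Proliferation genes were present in every library. All 16 genes of the S phase list and all 20 of the list of G2 and M phase had at least 10 counts in each library. The S phase list summed to 1285, 1221, 1501 and 1623 CPM, led by Dut, which hydrolyses dUTP, at 182, 156, 195 and 177 CPM, Slbp, the histone stem-loop binding protein, at 159, 151, 159 and 195 CPM, Mcm6, of the replicative helicase, at 142, 123, 186 and 207 CPM and Rrm1, ribonucleotide reductase, at 120.4, 115, 152 and 215 CPM. Mcm2 was at 63.7, 62.3, 62.9 and 67.1 CPM. J_7139 was the highest library for Slbp, Mcm6, Rrm1 and Mcm2, and J_7134 for Dut. The G2 and M list summed to 2118, 3261, 2554 and 3098 CPM, led by Top2a, topoisomerase II, at 329, 542, 372 and 485 CPM, Tubb5, a tubulin, at 374, 444, 365 and 446 CPM, Mki67, the antigen Ki-67, at 182, 280.0, 169.8 and 293 CPM and Ube2c, a ubiquitin-conjugating enzyme of mitotic exit, at 148, 319, 224 and 169 CPM. Kif11, a mitotic kinesin of the list that was named after its values were seen, was at 45.0, 65.4, 49.8 and 121 CPM. J_7139 and J_7134 were the higher libraries for S phase, and J_7100 and J_7139 for G2 and M phase, so J_7079 was not among the 2 highest for either list. Replication-dependent histones summed to 637, 982, 797 and 757 CPM, and 32 of the 55 with a mean of at least 10 counts were highest in J_7100, as were 23.9% of all genes tested. Hist1h2bc, the highest of them, was at 134, 151, 137 and 155 CPM, and Hist1h1b, a linker histone, at 77.4, 157, 112 and 131 CPM. Their messages mostly lack a poly(A) tail, and the libraries were primed with oligo(dT), so these levels depend on the method.

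Among housekeeping functions, nuclear genes of the respiratory chain summed to 25955, 27747, 28439 and 28298 CPM, led by Cox4i1 at 1138, 1112, 1168 and 1186 CPM and Atp5b at 1091, 1086, 1114 and 1261 CPM. Cox6b1 was at 822, 867, 902 and 818 CPM. The mitochondrially encoded genes summed to 249893, 315576, 348358 and 236099 CPM, with a CV of 0.186 against 0.0414 for the nuclear list. Translation factors summed to 10723, 11047, 10775 and 9884 CPM, with Rack1, a ribosomal scaffold, at 1442, 1511, 1281 and 1263 CPM and Ncl, nucleolin, at 911, 1050.4, 1069 and 889.6 CPM. Glycolytic genes summed to 833, 779, 1026 and 936 CPM, with Ldha, lactate dehydrogenase, at 207, 211, 290.3 and 257 CPM, Tpi1 at 136, 124, 197 and 194 CPM, Hk2, a hexokinase, at 145, 126, 178 and 144 CPM and Aldoa at 125, 119, 158 and 133 CPM. The cytoskeleton list summed to 8010.1, 8013, 7343 and 6376 CPM, with Actb at 612, 579.7, 554 and 473 CPM. Chaperones and secretory genes of the endoplasmic reticulum summed to 2737, 2662, 2843 and 2896 CPM. In this list Hspa5, the chaperone BiP, was at 413, 373, 581 and 569 CPM and Pdia3, a disulfide isomerase, at 485, 427, 438 and 489.7 CPM, while Canx, calnexin, was close in the 4 libraries at 378, 397, 389.8 and 399.6 CPM.

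Immediate early and heat shock genes, some of which respond to the handling of tissue, summed to 2254, 1997, 1895 and 2338 CPM, with Hspa8, a chaperone, at 324, 266, 434 and 374 CPM, Fos at 393, 368, 255 and 379 CPM and Egr1 at 244, 220.4, 172 and 287 CPM. Their part in other values was not tested. The list of MLL and polycomb genes summed to 969, 1035, 1006 and 1026 CPM. It was led by Dpy30, a core partner of MLL complexes, at 208, 229.9, 222 and 205 CPM, and by Suz12, Eed and Ezh2, the core of PRC2, a repressive histone methyltransferase. Suz12 was at 124, 135, 134 and 141 CPM, Eed at 100.3, 90.7, 134 and 165 CPM and Ezh2 at 74.4, 84.6, 99.9 and 78.1 CPM. Eed and Suz12 were highest in J_7139 and Ezh2 in J_7134.

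Pan-epithelial genes summed to 6406, 6138, 6023 and 6078 CPM, with Epcam, the protein used for sorting, at 1426, 1468, 1251 and 1263 CPM, Lgals4 at 1602, 1473, 1766 and 1601 CPM and Krt18 at 515, 438, 567 and 648 CPM. Markers of other cells were low. Of the immune list, 3 of 21 genes had at least 10 counts in each library, and Ptprc, which encodes CD45, was at 0.954, 0.210, 0.400 and 0.451 CPM. The list summed to 545, 313, 215 and 574 CPM, most of it H2-Aa, at 329, 160.2, 114 and 341 CPM, and Cd74, at 159.6 ± 60.3 CPM (SD, n = 4), genes of MHC class II that crypt stem cells can express as well. Cd68, of macrophages, was at 5.13, 7.50, 9.60 and 5.47 CPM. Gzma, a granzyme of cytotoxic lymphocytes, was at 9.13, 0, 0.960 and 2.77 CPM. The stromal and endothelial list summed to 12.6 to 15.0 CPM over the 4 libraries, led by Pecam1, an endothelial adhesion molecule, at 5.49, 4.14, 5.84 and 4.44 CPM and Vim, vimentin, at 3.10, 4.77, 4.88 and 0.193 CPM, that of neurons and glia to 5.13, 4.35, 1.84 and 3.67 CPM and that of erythroid cells to 2.39, 0, 0.480 and 0.708 CPM. Col1a1, the defining fibroblast collagen, was at 0.597, 0.350, 0.0800 and 0.386 CPM and the haemoglobin gene Hba-a1 had 1 count in J_7134 and 0 counts in the others.

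The sex of the mice is not labelled. Xist, the RNA of the inactive X chromosome, was at 521, 516, 0 and 402 CPM, and J_7134, the library without a count of it, held 172 CPM of Eif2s3y, 59.3 CPM of Ddx3y and 40.0 CPM of Uty, which lie on the Y chromosome. In the others, the highest value of these 3 genes was 0.515 CPM, of Uty in J_7139. J_7134 also held the most CT010467.1 and mt-Cytb, and for the main measures of spread below a value without it is given as well.

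The spread between the libraries was described over all genes. The common biological coefficient of variation of edgeR was 0.377 over 16622 genes with a mean of at least 10 counts, and 0.364 without J_7134. The median CV of a gene was 0.241, with quartiles of 0.147 and 0.417. It fell with expression, from 0.518 for 2070 genes between 1 and 2 CPM to 0.225 for 2309 genes between 10 and 20 CPM and 0.116 for 1512 genes between 100 and 1000 CPM. It was 0.138 for the 56 genes at 1000 CPM or more, which include 11 of the 37 mitochondrially encoded genes. Without J_7134 these last 2 medians were 0.104 and 0.0985, so the median at 1000 CPM or more was then below that between 100 and 1000 CPM. The removal of another library is not given for these medians.

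Counting error alone would give a CV of 0.220 between 1 and 2 CPM and of 0.0203 between 100 and 1000 CPM. By a chi-square index of dispersion, 1-sided and with Benjamini-Hochberg adjustment, 13818 of 16622 genes (83.1%) differed between the 4 libraries by more than counting error at an adjusted p under 0.05. Among the 3273 genes at 50 CPM or more it was 96.3%. The test does not separate differences between animals from those of sorting and amplification. Of the listed genes it called 31 of 32 in the stem cell list, 21 of 22 in the Paneth list, 75 of 80 ribosomal protein genes and 82 of 87 of the nuclear respiratory chain, beside the shares of all genes above. The lists differed more in the size of the spread. The median CV of members with a mean of at least 10 counts was 0.518 for the Paneth list, 0.518 for the goblet list and 1.35 for the enteroendocrine list, beside 0.144 for the stem cell list, 0.107 for ribosomal protein genes and 0.0881 for translation factors. Without J_7134 they were 0.497, 0.453 and 1.15, beside 0.0979, 0.114 and 0.0902. The levels of the lists differ as well, and these medians were not tested against each other.

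**Figure D5:**
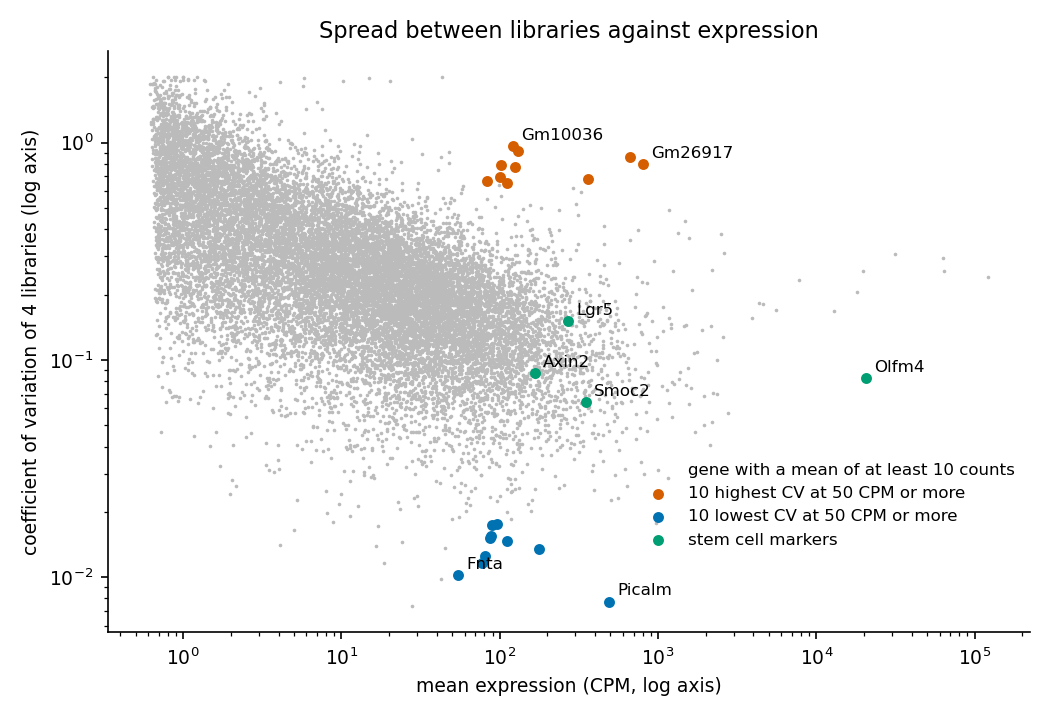
Coefficient of variation of the 4 libraries (y axis) against the mean CPM (x axis) of each gene with a mean of at least 10 counts, both on log axes. Of the stem cell markers (green), Lgr5, Axin2 and Smoc2 lie among the other genes of their level. Olfm4, at 0.0822, has the lowest coefficient of the 8 genes with the highest mean CPM, and the others of these are mitochondrially encoded genes and the ribosomal RNA CT010467.1. The 10 highest at 50 CPM or more (orange) reach 0.966 for Gm10036, and Picalm, at 0.00774, is the lowest of the 10 lowest at 50 CPM or more (blue).

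The 10 genes with the lowest CV at 50 CPM or more were Picalm, a clathrin adaptor of endocytosis, Fnta, a farnesyltransferase subunit, Rps6, Syf2, Cops2, Lman2, Ift20, Lap3, Thyn1 and Arglu1. Picalm was at 495, 487, 494 and 494 CPM, a CV of 0.00774, and Fnta at 54.3, 54.7, 53.6 and 54.8 CPM, a CV of 0.0103. Arglu1, the last of them, had a CV of 0.0177. They were chosen as the extremes of 3273 genes in 4 libraries, of which 6.26% had a CV under 0.05, and without J_7134 2 of them remained among the 10 lowest. Rps6 shares 45.0% of its words with other genes, so its level of 77.0 ± 0.897 CPM is uncertain.

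Without J_7134, the median CV over all genes tested was 0.217. At the other end, 23 genes at 50 CPM or more, or 0.703%, had a CV over 0.5, and without J_7134 29 genes had one, 20 of them in common. The 10 highest were Gm10036, Rn7sk, Pla2g2a, Gm26917, Gm43305, Rpl34, Hmgn2, Xist, Defa21 and Alad. Rn7sk, a noncoding RNA that holds back transcription elongation, was at 74.8, 35.6, 303 and 105 CPM, and Gm26917, annotated as a lincRNA, at 302, 378, 1690.3 and 825 CPM. Both were highest in J_7134, as was CT010467.1. Gm26917 ends at 39846341 on chromosome 17, next to CT010467.1, which starts at 39846353. Whether the values of these neighbours are independent was not tested. Without J_7134 the CV of Rn7sk went from 0.918 to 0.486, that of Gm26917 from 0.798 to 0.564 and that of Xist from 0.684 to 0.140, and 4 of the 10 genes remained among the 10 highest. Rpl34, of the large ribosomal subunit, was at 43.3, 206, 212 and 40.0 CPM and Hmgn2, a nucleosome-binding protein, at 84.5, 21.9, 191 and 105 CPM. Together with its 4 processed copies, Rpl34 summed to 183, 360, 385 and 175 CPM, a CV of 0.408 beside 0.772 alone, so its own level is uncertain. Alad, an enzyme of haem synthesis, was at 60.4, 78.2, 86.4 and 218 CPM, with J_7139 the highest.

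Of these 23 genes, 9 had J_7100 and J_7134 as their 2 highest libraries, which 14.4% of all genes at 50 CPM or more had. They were Gm10036, Gm43305, Rpl34 and 6 Paneth cell genes. The defensin Defa21 was at 38.9, 94.1, 156 and 42.0 CPM, Defa22 at 52.3, 136, 166 and 53.3 CPM and Defa17 at 75.3, 256, 179 and 109 CPM, Mptx2, a mucosal pentraxin, at 33.9, 172, 130.5 and 59.8 CPM, AY761184, a defensin gene, at 180.4, 507, 345 and 174 CPM, and Lyz1 as above. That J_7100 and J_7134 were above J_7079 and J_7139 in each of these 6 genes follows from the grouping by the 2 highest libraries. It adds no support to this order. 3 genes had J_7079 and J_7139 as the 2 highest, beside 11.3% of all genes at 50 CPM or more. They were Pla2g2a, Adh6a, an alcohol dehydrogenase, at 61.1, 26.3, 37.7 and 106 CPM and Slc19a2, a thiamine transporter, at 89.4, 27.1, 29.1 and 80.5 CPM. 8 genes were highest in J_7134 and J_7139, beside 27.3% of all genes at 50 CPM or more. Rgcc, a regulator of the cell cycle, was among them at 58.9, 55.3, 104 and 157 CPM. Genes outside the 10 highest were named after their values were seen.

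Other genes with J_7079 and J_7139 as the 2 highest were picked for this order after their values were seen, so they add no support to it. Among them were Adh1, an alcohol dehydrogenase, at 544, 258, 345 and 674 CPM, Cyp2e1, a cytochrome P450, at 209.8, 84.3, 84.5 and 145 CPM, Sult1d1, a sulfotransferase, at 162, 59.7, 75.9 and 116 CPM, H2-Ab1, of MHC class II, at 356, 225, 169 and 494 CPM and Fcgbp, a mucus protein, at 53.3, 15.7, 11.99 and 40.3 CPM. In the immune list, 3 of the 5 genes with a mean of at least 10 counts had this order, which were H2-Aa, Cd74, at 190.5 and 223 CPM in these 2 beside at most 140.1 CPM in the others, and Gzma. So did Ptprc, at 16, 3, 5 and 7 counts. Over the whole immune list, 5 of 21 genes had J_7079 and J_7139 as the 2 highest, and in 4 both were above the other libraries. Of all genes at 50 CPM or more, 11.3% had this order. Most genes of the immune list lay far below that level, with 5 at a mean of at least 10 counts, so this share is no match for theirs. Cd68 went the other way, with J_7100 and J_7134 the highest. The part of immune cells in these values was not tested. What moved with these orders beyond the values given was not tested.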

How the data were processed

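RNA of sorted cells was reverse transcribed with oligo(dT) and amplified by a protocol of the Smart-seq2 type. The authors deposited a table of raw read counts per gene (GSNAP 2018-07-04, featureCounts 1.6.3 and bcl2fastq 2.19.1, per the submitters' processing notes and the file header). It covers mm10 with Ensembl release 92 genes, without strand and at a mapping quality of at least 1, and the authors describe it as counts of uniquely mapped reads. The authors also deposited a table of normalised counts, a signal on the scale of counts divided by size factors (DESeq2 1.22.2 per the processing notes), which served here for gene names, classes and positions only. Of 53801 genes, 25485 were annotated by that table, 28170 by GENCODE release 21 and 146 by neither. 92 rows of spike-in RNA were left out.

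CPM were computed with TMM factors of edgeR 4.0.16 over all 8 libraries (R 4.3.3, Python 3.11.15, matplotlib 3.10.9), so that each of the 4 libraries has the scale of the whole series. Totals were 14468751 to 16847793 counts. TPM were counts per kilobase of the gene length in the table, scaled to a sum of 1000000. Spread was tested for genes with a mean of at least 10 counts by a chi-square index of dispersion of the counts against equal CPM, 1-sided, with 3 degrees of freedom and Benjamini-Hochberg adjustment at 0.05, after a check on simulated counts. No comparison between groups was made. Replicates are separately titled samples from independent mice, per the study's description. Alternatives were DESeq2 1.42.0 size factors, TMM over the 4 libraries alone, library totals, other count minima, removal of mitochondrially encoded genes, counts per kilobase and leaving out each library.

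Genes named by rule were the targeted genes, 4 stem cell markers, the 30 highest by CPM and 10 by TPM, the first-stated and 4 highest members of each of 28 lists, 3 for each of 6 classes, and the 10 highest and 10 lowest CVs at 50 CPM or more. The members, lists and rules were chosen with earlier results of these data known. 3 list symbols had no row, and some genes and sequences are not reported here. Copies were compared by the 31-base words of GENCODE release 21 transcripts, read in the sense of each transcript.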

Additional observations from a re-analysis of the deposited data

Results flagged for a closer look

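In 210 sets of 4 values (CPM of a named gene or list, a share of counts, or a measure of depth), 1 library stood apart from the others in 16, by a gap to its nearest neighbour above Dixon's critical value for 4 samples at 95%. Chance gives this in about 1 in 20 sets of independent values, a rate that does not apply to all of these. The sets share libraries, 3 of the 16 (Gm10036, Alad and Picalm) are genes named for their CV, and 2 (Hba-a1 and Hbb-bs) have counts in a single library. The remaining 11 were among 145 genes with a mean of at least 10 counts that were not named for their CV alone. The library that stood apart was J_7134 in 7, J_7100 in 5, J_7139 in 3 and J_7079 in 1.

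J_7100 was the highest for Kmt2a, at 64.7 CPM with the others at 48.8 to 51.0 CPM. It was also the highest for the enteroendocrine genes Chgb, at 29.6 CPM (others 4.88 to 7.46), and Chga, at 7.99 CPM (others 0.775 to 0.880), and for Gm10036, at 295 CPM (others 53.7 to 67.6). It was the lowest for Picalm, the gene with the smallest CV, at 487 CPM (others 494 to 495).

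J_7134 was the lowest for Onecut2, at 111 CPM (others 179 to 192), and the highest for Ada, at 33.7 CPM (others 13.6 to 15.2). It was the highest for Cct6a, at 373 CPM (others 310.4 to 313). The Y-linked genes Eif2s3y, Ddx3y and Uty were at 172, 59.3 and 40.0 CPM in J_7134. Hba-a1 was at 0.0800 CPM there, which is 1 count, and at 0 in the others.

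J_7139 was the highest for Atp5b, at 1261 CPM (others 1086 to 1114), and for Alad, at 218 CPM (others 60.4 to 86.4). Hbb-bs was at 0.129 CPM in J_7139, which is 2 counts, and at 0 in the others. J_7079 was the highest for Tubb3, a tubulin of neurons, at 2.39 CPM (others 0 to 0.350).

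Among the spike-in rows, which no other value uses, J_7100 held 36 counts on 1 spike-in RNA that had 0 counts in the others. J_7139 held 2 counts on 2 other spike-ins.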

How the results depend on the processing

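Of 192 values under other scalings and minima for 44 results, 110 moved by less than the SD of the 4 libraries, or for a count by less than 1.5 times, and 82 moved by more. Leaving out 1 of 4 libraries cannot move a mean by more than their SD, so these 176 values were read as folds. 1 moved by over 1.5 times, the erythroid list, from 0.893 to 0.396 CPM without J_7079, and the others by at most 1.33 times. The common biological coefficient of variation was 0.364 to 0.402, and 12128 to 12636 genes were called in these fits. Mitochondrially encoded genes take a large part of the counts. Without them, the summed CPM became 35922 for the stem cell list, 7279 for Paneth, 1129 for goblet and 35914 for ribosomal protein genes, and Olfm4 stood at 26495, Lgr5 at 347, Smoc2 at 449 and Axin2 at 213 CPM. Shares of counts then became 80.8% for protein-coding genes, 8.21% for ribosomal RNA, 6.83% for processed pseudogenes, 1.16% for lincRNA and 0.696% for processed transcripts, and the upper 50% of counts lay on 720.2 genes. On the TPM scale, which divides by length, the sums were 12829 for stem, 16679 for Paneth, 1840 for goblet, 53.1 for enteroendocrine and 342475 for mitochondrially encoded genes, and Olfm4 stood at 10359.8, Lgr5 at 39.4, Smoc2 at 184 and Axin2 at 44.9 TPM. Per kilobase, the shares were 56.8% protein-coding, 4.03% ribosomal RNA, 18.2% processed pseudogenes, 0.567% lincRNA and 0.358% processed transcripts, and the upper 50% lay on 52.8 genes. With a mean of at least 1 count as the minimum, the median CV was 0.415. Adding the processed copies, an alternative chosen after seeing the data, brought ribosomal protein genes to 56789 CPM. The other 51 of the 82 were for lists not named here. No paired analysis was possible because the 4 libraries are 1 group and were compared with no other. Depth limits values near the floor of 0.179 to 0.240 CPM, and sorting, amplification and differences between animals cannot be told apart.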

Other observations

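The genes below were picked after their values were seen. Pbk, a mitotic kinase, was at 93.6, 145, 156 and 249 CPM and was highest in J_7139, as was Kif11. Igtp, an interferon-inducible GTPase, was at 20.1, 11.1, 9.92 and 35.4 CPM, higher in J_7079 and J_7139 than in the others. Hmgb1, an abundant chromatin protein, was at 42.6, 114, 35.3 and 42.3 CPM and highest in J_7100. Rpl35a, of the large ribosomal subunit, was at 29.0, 90.1, 32.9 and 53.3 CPM and highest in the same library, and both are among the genes with a CV over 0.5. Summed with its processed copy, Rpl35a had a CV of 0.474 beside 0.544 alone. Rps27, of the small ribosomal subunit, was at 29.8, 34.0, 38.5 and 30.4 CPM, while AC134548.1, a processed pseudogene with 73.0% of its 31-base words in Rps27, was at 554 ± 47.6 CPM (SD, n = 4). Whether these reads came from the gene or the copy was not tested.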
